A study of Homo sapiens with 6 samples.

Results

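The fibroblast growth factor (FGF) genes of the human genome, their receptor genes and the Sprouty and Spred genes were described by the chromatin that was open around them in hTERT-RPE1 cells. Members were the protein-coding RefSeq genes on chromosomes 1 to 22 and X whose symbols are FGF with a number, FGFR1 to FGFR4, FGFRL1, SPRY1 to SPRY4 or SPRED1 to SPRED3. The symbols gave 34 genes of 19974. They comprise 15 secreted paracrine ligands, 3 endocrine ligands, 4 intracellular FGF homologous factors, 5 receptors and 7 feedback inhibitors.

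The cells were wild type and carried no labelled treatment. hTERT-RPE1 is a human retinal pigment epithelial line immortalised with the catalytic subunit of telomerase. Open chromatin was assayed by ATAC-seq: the transposase Tn5 cuts accessible DNA and adds sequencing adapters. The titles of the 6 libraries form 2 sets of 3, R1 and R2. What sets R1 apart from R2 is not labelled, and nothing shows whether the libraries came from separate cultures. Each set was available as 1 pooled list of peaks, so values stand side by side for R1 and R2, the spread between libraries is not known, and no test was made.

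FGFs bind receptor tyrosine kinases at the cell surface together with heparan sulfate or, for the endocrine ligands, Klotho proteins. The adaptor FRS2 then carries the signal to RAS and the ERK kinases, and Sprouty and Spred proteins dampen that cascade. In the embryonic eye of chick and mouse, FGF signals favour neural retina over pigment epithelium.

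A gene-end region was a peak that came within 1000 bp of an end of the RefSeq gene interval, at the start side or the far side, and the strongest was the one with the highest fold. The fold is the peak's enrichment over local background as the authors deposited it. The pileup, the number of overlapping fragments or reads at the summit, was recovered from the fold and the p-value. The median fold over all peaks was 5.04 in R1 and 5.12 in R2, and the median pileup was 72 in each list. A region is called above-median when its fold was at or over that median. A shared region is a stretch covered by overlapping peaks of both lists. A start window runs from 250 bp before to 50 bp after an annotated start, and the RefSeq promoter table (GRCh38.p14) gave one or more for 26 of the 34 members. A start or its window is called open when a peak overlaps the window, even where the summit lies outside it.

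There were 143492 peaks in R1 and 134940 in R2, and 122421 shared regions lay on the chromosomes used. Of 14 pigment epithelial markers, 9 were open at a gene end in both lists, a share below the 73.9% of all protein-coding genes. Among them were MITF, PMEL, KRT18 and OTX2, the last with pileups of only 29 in R1 and 35 in R2. RPE65, TYR, TYRP1, TTR and LRAT, which belong to the visual cycle, pigment synthesis and retinol transport of mature pigment epithelium, had none in either list. Markers of other tissues were open in both lists at 2 of 4 blood genes (SPI1 and CD3E) and 1 of 2 liver genes (APOA1), against the same 73.9%. These counts do not tell the tissue. Whether a marker region also lies at the end of another gene was not examined. An open gene end is not a measure of expression. SPI1, a blood factor, reached a fold of 9.16 (R1) and 9.63 (R2). APOA1, a liver gene, reached 9.21 (R1) and 9.97 (R2).

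Most genes of the FGF system were open at a gene end, and a smaller share of them than of all genes carried an above-median or very tall region there. A gene-end region stood in both lists for 29 of the 34 members (85.3%), against a background of 73.9% of all protein-coding genes. FGF6, FGF10, FGF16 and FGF21 had one in neither list (background 23.3%), and FGF14 had one in R2 only. An above-median region in both lists was found at 13 members (38.2%), against 57.3% of all genes. A pileup above the 90th percentile of its list, in both lists, was found at 9 members (26.5%), against 39.4% of all genes. A start window was open in both lists for 17 of the 26 members that have one (65.4%), against 69.1% of all genes that have one. No start window was open in either list at 9 members, FGF3, FGF6, FGF7, FGF10, FGF11, FGF14, FGF21, FGF23 and FGFR3 (background 28.1%). The 1000 bp limit decided FGF14 alone between the lists, with its nearest region 891 bp inside the gene in R2 and 1051 bp inside in R1. FGF3 in R2 was just within it at 963 bp, and FGF21 was the next outside it at 2375 bp in R1 and 2273 bp in R2.

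**Figure D1:**
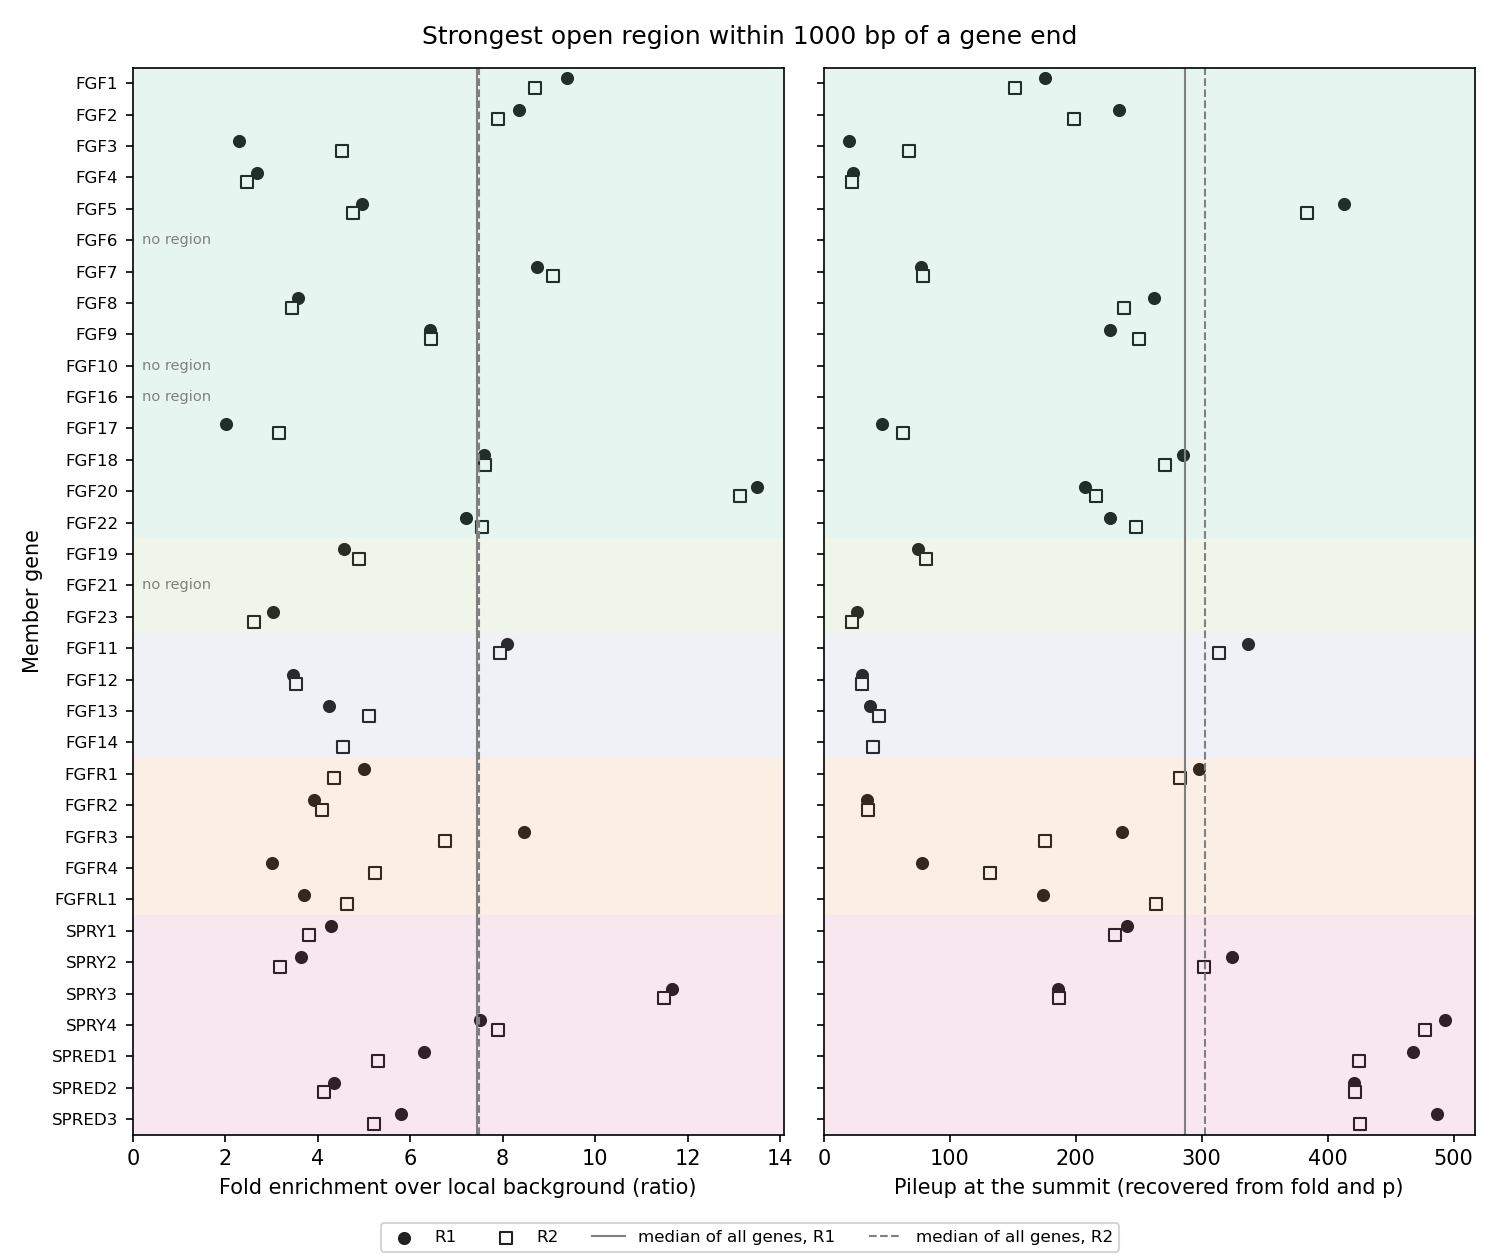
Fold enrichment (left, a ratio) and recovered pileup (right) of the strongest region within 1000 bp of a gene end, 1 row per member, with circles for R1 and squares for R2. Vertical lines are the medians of genes with a region in both lists, at folds of 7.43 (R1) and 7.49 (R2) and pileups of 287 in R1 and 303 in R2. SPRY4, SPRED1, SPRED2, SPRED3, FGF5 and FGF11 lie right of both pileup lines, and shading marks the roles in the order of the text.

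Among the 15 secreted paracrine ligands, 12 were open at a gene end in both lists, against 73.9% of all genes. An above-median region in both lists stood at 7 of the 15, against 57.3% of all genes. Of the 9 with a start window, 5 had it open in both lists, against 69.1% of all genes: FGF1, FGF2, FGF5, FGF18 and FGF22. By fold, the strongest peaks over ligand start windows were those of FGF1, FGF18 and FGF22. FGF1 binds all FGF receptors and leaves cells without a signal peptide. FGF18 acts on cartilage and bone, and FGF22 is known for presynaptic differentiation in mouse brain. FGF1 had a fold of 9.40 and a pileup of 176 in R1 and a fold of 8.70 and a pileup of 152 in R2. FGF18 had a fold of 7.61 and a pileup of 285 in R1 and a fold of 7.62 and a pileup of 271 in R2. FGF22 had a fold of 7.20 and a pileup of 227 in R1 and a fold of 7.56 and a pileup of 248 in R2. All 3 stood above the median peak by fold in each list. The 250 bp before these starts (RefSeq, GRCh38.p14) show how unlike open FGF promoters were. Capitals mark GC boxes (GGGCGG or its reverse complement CCGCCC) and CCAAT boxes (CCAAT or ATTGG).
FGF1 start, chr5:142698071-142698320, minus strand: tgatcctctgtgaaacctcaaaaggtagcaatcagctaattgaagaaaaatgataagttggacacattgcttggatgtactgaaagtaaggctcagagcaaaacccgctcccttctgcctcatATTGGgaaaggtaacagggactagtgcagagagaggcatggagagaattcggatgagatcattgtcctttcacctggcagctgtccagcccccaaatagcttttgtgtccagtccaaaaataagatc
FGF18 start, chr5:171419397-171419646, plus strand: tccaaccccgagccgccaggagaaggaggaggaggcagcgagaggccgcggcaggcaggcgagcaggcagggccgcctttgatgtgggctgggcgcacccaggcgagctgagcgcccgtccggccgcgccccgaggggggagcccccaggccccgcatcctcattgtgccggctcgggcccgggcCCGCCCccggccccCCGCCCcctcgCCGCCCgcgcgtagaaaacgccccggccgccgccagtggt
FGF22 start, chr19:639629-639878, plus strand: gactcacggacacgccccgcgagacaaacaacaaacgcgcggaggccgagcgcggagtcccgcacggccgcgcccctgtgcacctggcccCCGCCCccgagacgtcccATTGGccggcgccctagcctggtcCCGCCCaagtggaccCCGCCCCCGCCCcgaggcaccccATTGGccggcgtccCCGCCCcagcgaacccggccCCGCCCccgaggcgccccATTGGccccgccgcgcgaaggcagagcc
The FGF1 stretch has 44.8% G and C with 2 CG dinucleotides and a single CCAAT box. The FGF18 stretch has 78.8% G and C with 31 CG dinucleotides and 3 GC boxes. That of FGF22 has 78.0% G and C, 35 CG dinucleotides, 6 GC boxes and 3 CCAAT boxes.

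FGF1 was open at every start the table gives it. The inner start at position 142686090 of chromosome 5 had folds of 8.30 in R1 and 8.54 in R2. The inner start at 142644239 had folds of 9.13 in R1 and 7.91 in R2, with pileups of 350 in R1 and 289 in R2. That pileup exceeded the one of the peak over the outermost start window in each list. The start at 142644239 also carries a match to TGANTCA, the AP-1 motif, 41 bp upstream of the start, shown in capitals with its surroundings. The stretch was chosen after the motif counts were seen.
FGF1 AP-1 match, chr5:142644259-142644295, minus strand: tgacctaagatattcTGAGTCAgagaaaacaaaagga
Outside the gene, 14935 bp from its nearest end, a region with folds of 12.0 (R1) and 12.4 (R2) and pileups of 463 in R1 and 450 in R2 was the tallest of the 19 shared regions within 50000 bp of FGF1.

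FGF2, another ligand exported without a signal peptide, was open at both ends. At its start the fold was 4.60 and the pileup 218 in R1, and the fold was 5.44 and the pileup 283 in R2. At its far end the fold was 8.35 and the pileup 234 in R1, and the fold was 7.89 and the pileup 199 in R2. The far end was the stronger by fold in each list and the start the taller in R2. The far-end region lies inside NUDT6, a gene that overlaps FGF2 from the opposite strand, so which gene it belongs to cannot be told from these files. FGF5, a ligand that ends hair growth in mouse and human, had the tallest gene-end region of any ligand, with pileups of 413 in R1 and 384 in R2. Its folds were 4.97 in R1 and 4.76 in R2, under the median peak in each list, over backgrounds of 82.4 in R1 and 79.9 in R2.

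FGF7 and FGF9 carried regions of unlike height. FGF7, the keratinocyte growth factor made by mesenchyme, had folds of 8.73 in R1 and 9.10 in R2 with pileups of only 77 in R1 and 79 in R2. Its region ended 771 bp before the gene in R1 and 689 bp before it in R2, so the start window itself was closed in both lists. FGF9, needed for testis and lung development in mouse, had folds of 6.43 (R1) and 6.45 (R2) and pileups of 227 in R1 and 250 in R2.

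FGF20, a ligand of inner ear and brain located on chromosome 8, had the highest gene-end fold of all members, 13.5 in R1 and 13.1 in R2. Each value stood at the 98.8th percentile of all peaks in its list. The pileups, 207 in R1 and 216 in R2, were below the medians of all genes with an open end, and the backgrounds were low at 14.4 in R1 and 15.5 in R2. The region was 1270 bp wide in R1 and 1151 bp wide in R2. In R1 it covered the gene's high-coordinate end, and in R2 it stopped 106 bp inside that end. The promoter table used here holds no start for FGF20, FGF4, FGF8, FGF9, FGF16, FGF17, FGF19 or FGFR1, so a start could not be told from a far end at these genes.

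The other open ligand ends were weak or shared with a neighbour. FGF8, an organiser of limb and brain patterning, had folds of 3.57 in R1 and 3.44 in R2 with pileups of 262 in R1 and 238 in R2, in a region shared with the end of NPM3. FGF17, its close relative, had folds of 2.01 in R1 and 3.16 in R2 with pileups of 46 in R1 and 63 in R2, in regions also at the end of DMTN. For neither gene can the region be given to the FGF gene alone. FGF4, a ligand of early embryos, had folds of 2.69 in R1 and 2.48 in R2 with pileups of 23 in R1 and 22 in R2. FGF3, which acts in inner ear and tooth development, counted as open in both lists only through different regions. In R1 the region had a fold of 2.30 and a pileup of 20 at the far end of the gene. In R2 the region had a fold of 4.54 and a pileup of 68 on the start side. That start-side region was also found in R1, with a fold of 3.52 and a pileup of 51, but outside the 1000 bp limit. All of these folds were below the median peak of their list.

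FGF6, FGF10 and FGF16 had no gene-end region in either list. FGF6 is known from skeletal muscle, FGF10 drives outgrowth of lung and limb buds, and FGF16 is known from heart. FGF10 was the member farthest from open chromatin, with its nearest peak 399748 bp from the gene in R1 and 384923 bp in R2. FGF6 had a single shared region within 50000 bp of its ends, 12405 bp from the gene, with pileups of 49 in R1 and 43 in R2. FGF16 had 6 shared regions within that distance, 1 of them inside the gene with folds of 5.82 (R1) and 5.12 (R2). The stretch before the closed FGF10 start is shown for contrast with the open ones.
FGF10 start, chr5:44389421-44389670, minus strand: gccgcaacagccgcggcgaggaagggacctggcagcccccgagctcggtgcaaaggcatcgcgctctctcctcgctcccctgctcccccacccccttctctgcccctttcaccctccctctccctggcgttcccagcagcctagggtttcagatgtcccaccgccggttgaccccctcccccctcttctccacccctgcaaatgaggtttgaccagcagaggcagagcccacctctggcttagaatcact
It has 65.6% G and C, 12 CG dinucleotides and no match to a searched motif, which says only that those letters are not in this stretch.

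The 3 endocrine ligands, hormones that signal through Klotho proteins, had no above-median region in both lists at any gene end. Over all genes, 57.3% had one. FGF19, the gut hormone that restrains bile acid synthesis, had folds of 4.57 in R1 and 4.89 in R2 with pileups of 75 in R1 and 81 in R2. FGF23, the bone hormone of phosphate balance, had folds of 3.02 in R1 and 2.62 in R2 with pileups of 26 in R1 and 22 in R2. Both were below the median peak by fold, and FGF23 was near the lowest pileups of the lists, at percentiles of 11.3 in R1 and 4.33 in R2. FGF21, the liver hormone of fasting, had no gene-end region in either list although 16 shared regions lay within 50000 bp. The one 7973 bp from the gene, at the ends of FUT1 and IZUMO1, had folds of 12.8 (R1) and 12.8 (R2) and pileups of 327 in R1 and 304 in R2. Neither start window of the 2 endocrine ligands that have one, FGF21 and FGF23, was open. Over all genes with a start window, 28.1% had none open in either list.

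The intracellular FGF homologous factors are not secreted and bind voltage-gated sodium channels. FGF12, FGF13 and FGF14 had low regions at their outermost ends. FGF12 had folds of 3.47 in R1 and 3.53 in R2 with a pileup of 30 in each list. FGF13 had folds of 4.25 in R1 and 5.12 in R2 with pileups of 37 in R1 and 44 in R2. FGF14 had a fold of 4.55 and a pileup of 39 in R2 and no gene-end region in R1. These pileups lay between the 16.8th and the 32.3rd percentile of their lists. Inside FGF12, however, the inner start at position 192409597 of chromosome 3 was open with folds of 7.59 (R1) and 7.63 (R2) and pileups of 208 in R1 and 238 in R2. It was thus far taller than the outer start of the same gene. FGF11 had folds of 8.10 (R1) and 7.95 (R2) and pileups of 337 in R1 and 314 in R2, but at its far end, in a region shared with the end of CHRNB1. In R2 a further region at the end of TMEM102 came within 1000 bp of its start side, with a fold of 6.01 and a pileup of 250. In R1 the same shared region had a fold of 7.26 and a pileup of 305 but stayed outside that limit. None of the 3 start windows of FGF11 was open. The stretches before the open inner start of FGF12 and the closed outermost start of FGF11 are shown together, with GC boxes in capitals.
FGF12 start, chr3:192409598-192409847, minus strand: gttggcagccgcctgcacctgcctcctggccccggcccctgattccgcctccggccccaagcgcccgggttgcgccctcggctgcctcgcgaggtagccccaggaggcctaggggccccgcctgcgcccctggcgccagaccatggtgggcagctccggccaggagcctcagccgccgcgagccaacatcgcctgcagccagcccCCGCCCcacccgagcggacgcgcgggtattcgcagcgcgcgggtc
FGF11 start, chr17:7438048-7438297, plus strand: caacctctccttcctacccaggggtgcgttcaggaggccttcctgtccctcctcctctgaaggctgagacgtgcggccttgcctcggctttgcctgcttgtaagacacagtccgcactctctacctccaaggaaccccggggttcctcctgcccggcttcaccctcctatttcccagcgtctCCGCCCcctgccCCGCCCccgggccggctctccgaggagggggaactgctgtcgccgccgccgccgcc
The FGF12 stretch has 77.2% G and C with 28 CG dinucleotides, and the FGF11 stretch 68.0% with 18. Both hold a GC box, 1 in FGF12 and 2 in FGF11, so the letters searched did not separate the open from the closed start.

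All 5 receptors were open at a gene end in both lists, against 73.9% of all genes. Of the 5, FGFR3 alone had an above-median region in both lists, against 57.3% of all genes. FGFR1, the receptor for FGF1 and FGF2 among others and located on chromosome 8, had its strongest gene-end region at the high-coordinate end. The fold was 4.99 and the pileup 298 in R1, and the fold was 4.34 and the pileup 283 in R2. In R1 it spanned 2687 bp with a further peak of 703 bp beside it, and in R2 a single peak spanned 3739 bp. The low-coordinate end carried 2 lower peaks in each list, with pileups of 157 and 161 in R1 and 154 and 145 in R2. FGFR1 also had the most shared regions of any member within 50000 bp, 20, which puts it at the 96.3rd percentile of all genes.

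FGFR2, known for its epithelial and mesenchymal splice forms, was the faintest of the 5. Its folds were 3.92 in R1 and 4.09 in R2 and its pileups 34 in R1 and 35 in R2, over the lowest background each list holds. Of its 5 start windows the outermost was open, and only 1 more shared region lay within 50000 bp of an end. FGFR3, the receptor mutated in achondroplasia, had folds of 8.46 (R1) and 6.75 (R2) and pileups of 237 in R1 and 176 in R2 at its far end, in a region also at the end of LETM1. Its own start window was closed in both lists, and the regions on its start side reached folds of 2.21 in R1 and 2.78 in R2.

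Receptor pileups also differed between the lists in both directions. FGFR4, the receptor for FGF19 in liver, had a fold of 3.02 and a pileup of 78 in R1 (exact Poisson 95% interval 61.7 to 97.3) and a fold of 5.24 and a pileup of 132 in R2 (110 to 157). FGFRL1, which binds FGFs but lacks the kinase domain, had a fold of 3.70 and a pileup of 174 in R1 (149 to 202) and a fold of 4.64 and a pileup of 264 in R2 (233 to 298). FGFR3 ran the other way, with its pileup of 237 in R1 (208 to 269) above that of 176 in R2 (151 to 204). None of these 3 pairs of intervals overlapped. Of the 29 members open at a gene end in both lists, 4 had intervals that did not overlap at the strongest region, the 3 receptors and FGF3, against 10.2% of all genes with one in both, so the share is near the background. Such intervals were higher in R2 at 3 members and higher in R1 at 1, against 9.04% and 1.18% of all genes. Of those higher in R2, FGF3 is compared at different regions, its far end in R1 and its start side in R2. The start-side region of FGF3 is shared, with pileups of 51 in R1 and 68 in R2. The intervals cover counting error only, PCR copies are not independent molecules, and with pooled lists the difference has no replicate check.

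**Figure D2:**
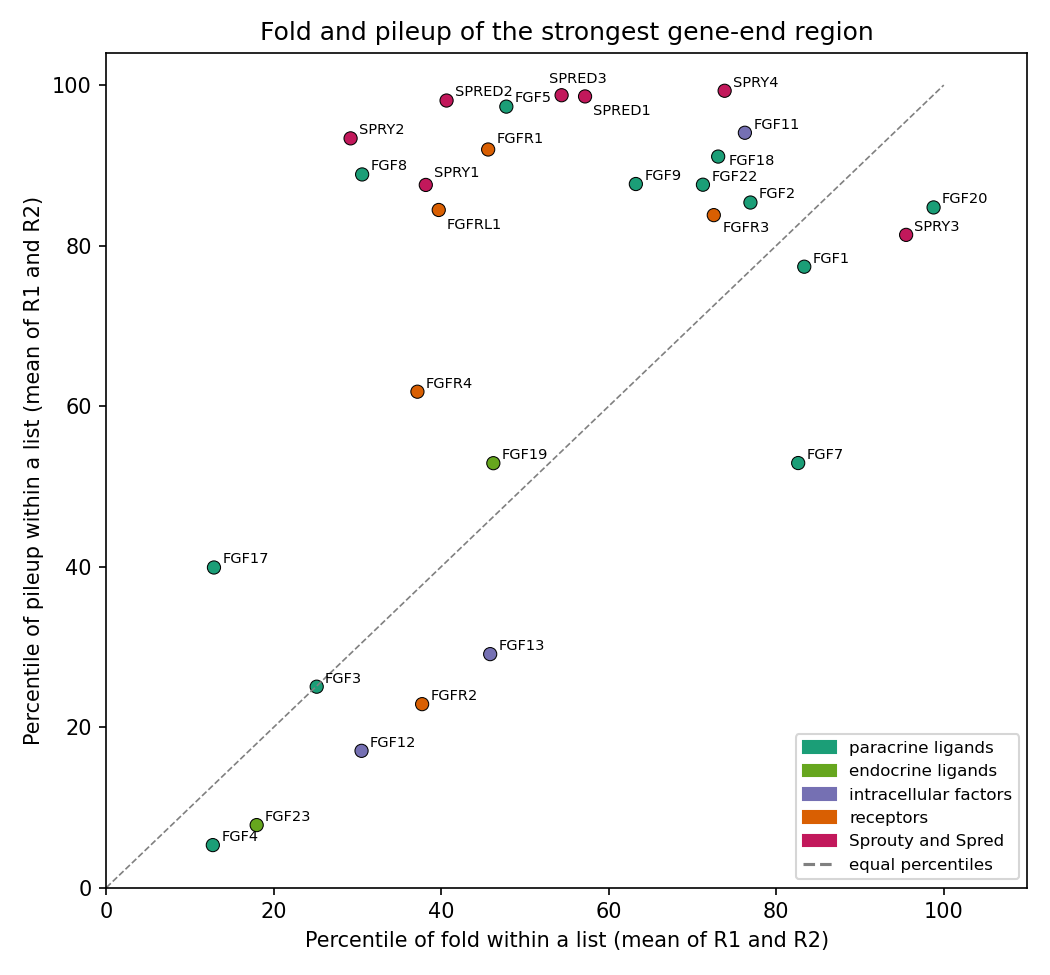
Percentile within the list of the recovered pileup (vertical) against that of the fold (horizontal) for the strongest gene-end region of each member with one in both lists, each the mean of R1 and R2. SPRED2, SPRED1, SPRED3 and FGF5 lie near the top at middling folds. SPRY2 lies near the top at a lower fold, and FGF7 lies at a high fold with a pileup near the middle of the lists.

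All 7 feedback inhibitors were open at a gene end in both lists, against 73.9% of all genes, and all 7 had an open start window in both, against 69.1%. Sprouty proteins are targets and brakes of receptor tyrosine kinase signalling, and Spred proteins bring neurofibromin to RAS at the membrane. Above-median regions in both lists stood at 4 of the 7, SPRY3, SPRY4, SPRED1 and SPRED3, against 57.3% of all genes. A pileup above the 90th percentile in both lists stood at 5 of the 7, SPRY2, SPRY4, SPRED1, SPRED2 and SPRED3, against 4 of the other 27 members and 39.4% of all genes.

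SPRY4 had the tallest gene-end region of all members in both lists. Its pileup was 493 in R1 and 477 in R2, at the 99.3rd percentile of each list, with folds of 7.51 (R1) and 7.90 (R2). SPRY3 was the opposite case, with folds of 11.7 (R1) and 11.5 (R2) over pileups of 186 in R1 and 187 in R2. Its region also lies at the end of TMLHE. The stretches before the single SPRY4 start of the table, which lies inside the gene interval, and before the outer SPRY3 start are printed with the GC box in capitals.
SPRY4 start, chr5:142324248-142324497, minus strand: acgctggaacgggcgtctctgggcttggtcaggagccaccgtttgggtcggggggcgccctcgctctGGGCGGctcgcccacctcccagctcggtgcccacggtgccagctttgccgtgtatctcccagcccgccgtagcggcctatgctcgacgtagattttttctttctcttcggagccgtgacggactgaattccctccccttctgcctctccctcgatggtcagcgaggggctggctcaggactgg
SPRY3 start, chrX:155612336-155612585, plus strand: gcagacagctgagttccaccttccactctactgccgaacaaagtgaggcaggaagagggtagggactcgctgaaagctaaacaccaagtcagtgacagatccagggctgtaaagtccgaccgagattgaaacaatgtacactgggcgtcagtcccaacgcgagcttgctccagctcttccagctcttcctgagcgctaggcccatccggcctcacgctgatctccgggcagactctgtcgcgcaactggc
The SPRY4 stretch has 65.6% G and C, 22 CG dinucleotides and 1 GC box. The SPRY3 stretch has 57.2% G and C, 13 CG dinucleotides and no searched motif. The distal part of SPRY3 reaches into the pseudoautosomal region, which the sex chromosomes share, and its inner start there had pileups of 124 in R1 and 119 in R2. How reads from such sequence were placed is not given in the sources used here.

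SPRED1, SPRED2 and SPRED3 had tall regions of moderate fold. SPRED1, whose loss causes Legius syndrome, had pileups of 468 in R1 and 425 in R2 with folds of 6.30 (R1) and 5.30 (R2). SPRED2 had pileups of 421 in R1 and 422 in R2 with folds of 4.35 (R1) and 4.14 (R2). SPRED3 had pileups of 487 in R1 and 426 in R2 with folds of 5.81 (R1) and 5.22 (R2), in a region also at the end of GGN. These pileups stood between the 98.1st and the 99.3rd percentile of all peaks in their list, and the folds between the 38.8th and the 62.2nd. SPRY1 had pileups of 241 in R1 and 231 in R2 with folds of 4.29 (R1) and 3.81 (R2). SPRY2 had pileups of 324 in R1 and 302 in R2 with folds of 3.63 (R1) and 3.19 (R2).

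The low folds of these inhibitors came with high local backgrounds, which divide the pileup to give the fold. The background was 88.6 in R1 and 94.1 in R2 at SPRY2, and 96.0 in R1 and 101 in R2 at SPRED2. The medians of all genes with an open end in both lists were 35 in R1 and 36 in R2. At 6 of the 7 inhibitors, all but SPRY3, the background was above that median in both lists. The strongest regions of these 6 ran from 1581 bp (SPRED2) to 2542 bp (SPRED3) in R1. In R2 they ran from 1584 bp (SPRED2) to 2708 bp (SPRED1). At SPRY2 the region spanned 1951 bp in R1 and 1968 bp in R2, with a further peak beside it. Widths were not set beside those of all genes. Whether nearby open sequence feeds the background was not tested.

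Searches of the 48 member start windows, on both strands, set their motifs beside all 22132 windows of the table. The GC box GGGCGG was in 26 of 48 (54.2%), against 56.3% of all windows, and CCAAT in 13 (27.1%), against 34.6%. TATAAA was in 4 (8.33%), against 9.46% of all. TGANTCA, the AP-1 motif, was in 5 (10.4%), against 6.15%, and GGAATG, the TEAD motif, in 6 (12.5%), against 12.2%. CCGGAA, the core bound by ETS factors that ERK can activate, was in 2 (4.17%), against 21.2%. The remaining motifs, TGACGTCA of the CRE in FGF6 and GCATGCGC of NRF1 in FGF12, were in 1 window each, against 2.26% and 3.74% of all windows. No searched motif contains another, but ETS and TEAD letters can overlap in part, and windows of nearby starts share bases.

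The 2 windows with the ETS letters belong to SPRY1 and SPRY2, and open AP-1 windows to FGF1, SPRED2 and SPRED3. The ETS matches and that of SPRED3 are shown with 15 bases on each side because they lie at inhibitors of the ERK cascade, and they were picked after the counts were seen.
SPRY1 ETS match, chr4:123398304-123398339, plus strand: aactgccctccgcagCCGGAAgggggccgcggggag
SPRY2 ETS match, chr13:80341248-80341283, minus strand: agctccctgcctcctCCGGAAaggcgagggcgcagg
SPRED3 AP-1 match, chr19:38389716-38389752, plus strand: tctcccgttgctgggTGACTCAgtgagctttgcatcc
The SPRY1 match lies 67 bp before an inner start at 123398386 on chromosome 4, and that of SPRY2 lies 142 bp before the outermost start. The SPRED3 match lies 60 bp before an inner start. The inner SPRED2 start, at position 65366778 of chromosome 2, holds AP-1 letters at 6 bp before and 34 bp after the start and was open with folds of 5.47 (R1) and 5.66 (R2). A match is a description of the letters and not evidence of a bound factor.

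In base composition, the medians of open and closed member windows lay closer together than those of all genes. The 28 member windows open in both lists had a median of 64.0% G and C and 19.5 CG dinucleotides, and the 20 closed in both had 59.5% and 8.5. Over all genes the open windows had medians of 65.3% and 26, and the closed ones 52.3% and 5. Closed member windows included very CG-rich ones. The FGFR3 window had 86.3% G and C with 51 CG dinucleotides, and the start of FGF14 at 101916945 on chromosome 13 had 81.0% with 50. In contrast the inner SPRED2 window was open with 39.3% G and C and 4 CG dinucleotides.

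**Figure D3:**
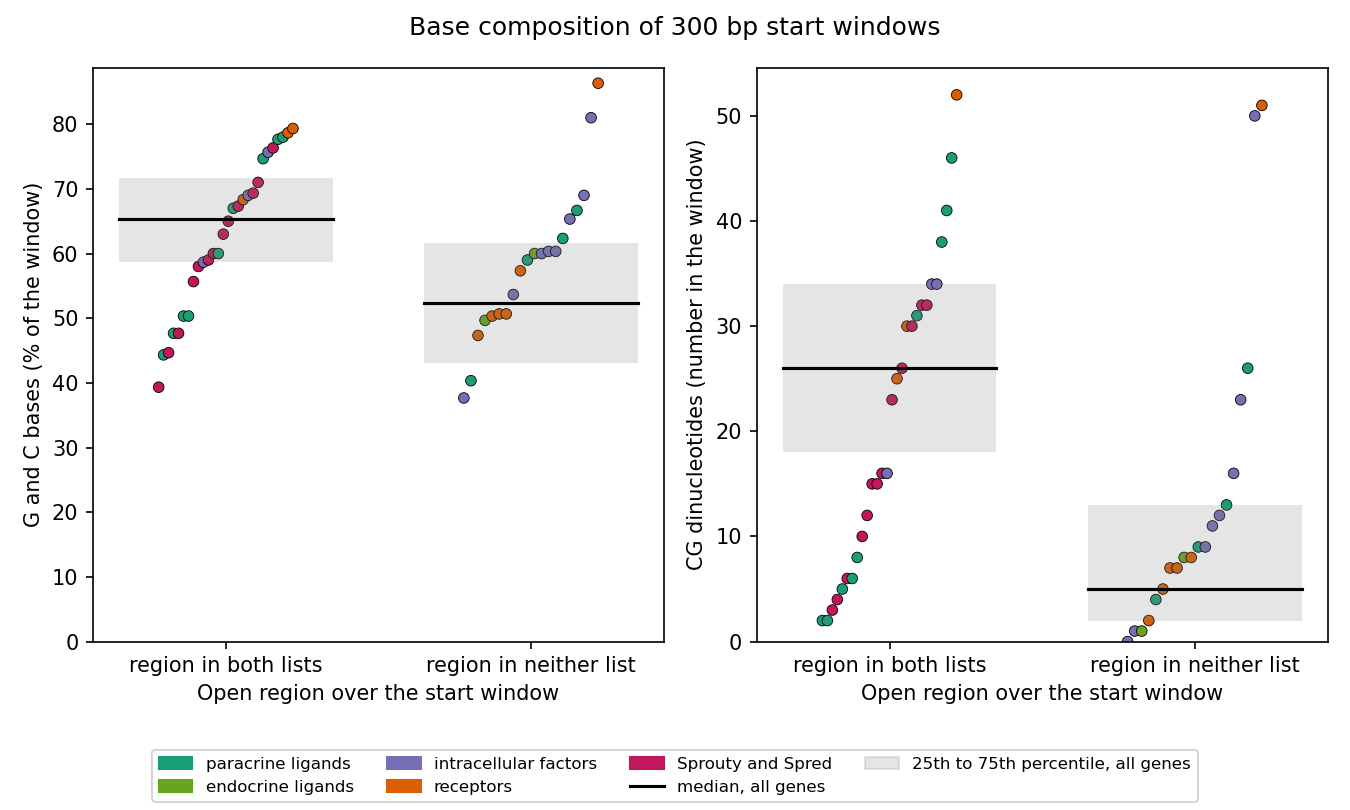
Share of G and C bases in percent (left) and number of CG dinucleotides (right) in the 300 bp start windows of the members, 1 point per window, by whether a region covered the window in both lists or in neither. Lines and grey bands are the median and the 25th to 75th percentile of all windows of the table, and the closed windows of FGFR3 (51 CG dinucleotides) and FGF14 (50) lie far above the closed band.

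Within 50000 bp of a gene end, 33 of the 34 members had at least 1 shared region, against 94% of all genes, and FGF10 was the exception. The median was 9 per member and 9 over all genes, with 14 members above that number, 6 at it and 14 below. Counted once, the members had 311 shared regions, of which 91 overlapped a member gene and 49 lay at the end of another gene. The receptors had a median of 15, the endocrine ligands 13, the paracrine ligands 9, the inhibitors 9 and the intracellular factors 4. The window of FGF4 overlaps those of FGF19 and FGF3, and the window of FGF23 overlaps that of FGF6, so regions in the overlaps count for both members.

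The 6 members with the most shared regions were FGFR1 with 20, FGF1 with 19, FGF2 with 18, SPRED2 with 17, and FGFR3 and FGF21 with 16 each. The fewest were 2 at FGFR2, 1 each at FGF6 and FGF13, and 0 at FGF10. SPRED2 held a region inside the gene, 112218 bp from its start, with folds of 11.3 (R1) and 11.1 (R2) and pileups of 370 in R1 and 366 in R2. FGF5, with 15 regions, had one 44401 bp beyond the gene with folds of 13.2 (R1) and 13.5 (R2) and pileups of 432 in R1 and 412 in R2. That fold was above 2 times the fold at the FGF5 start in each list. FGF14 had a region inside the gene with folds of 9.32 (R1) and 10.9 (R2) and pileups of 99 in R1 and 125 in R2, against a fold of 4.55 at its start side in R2. Which gene such a region acts on cannot be told from its position.

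**Figure D4:**
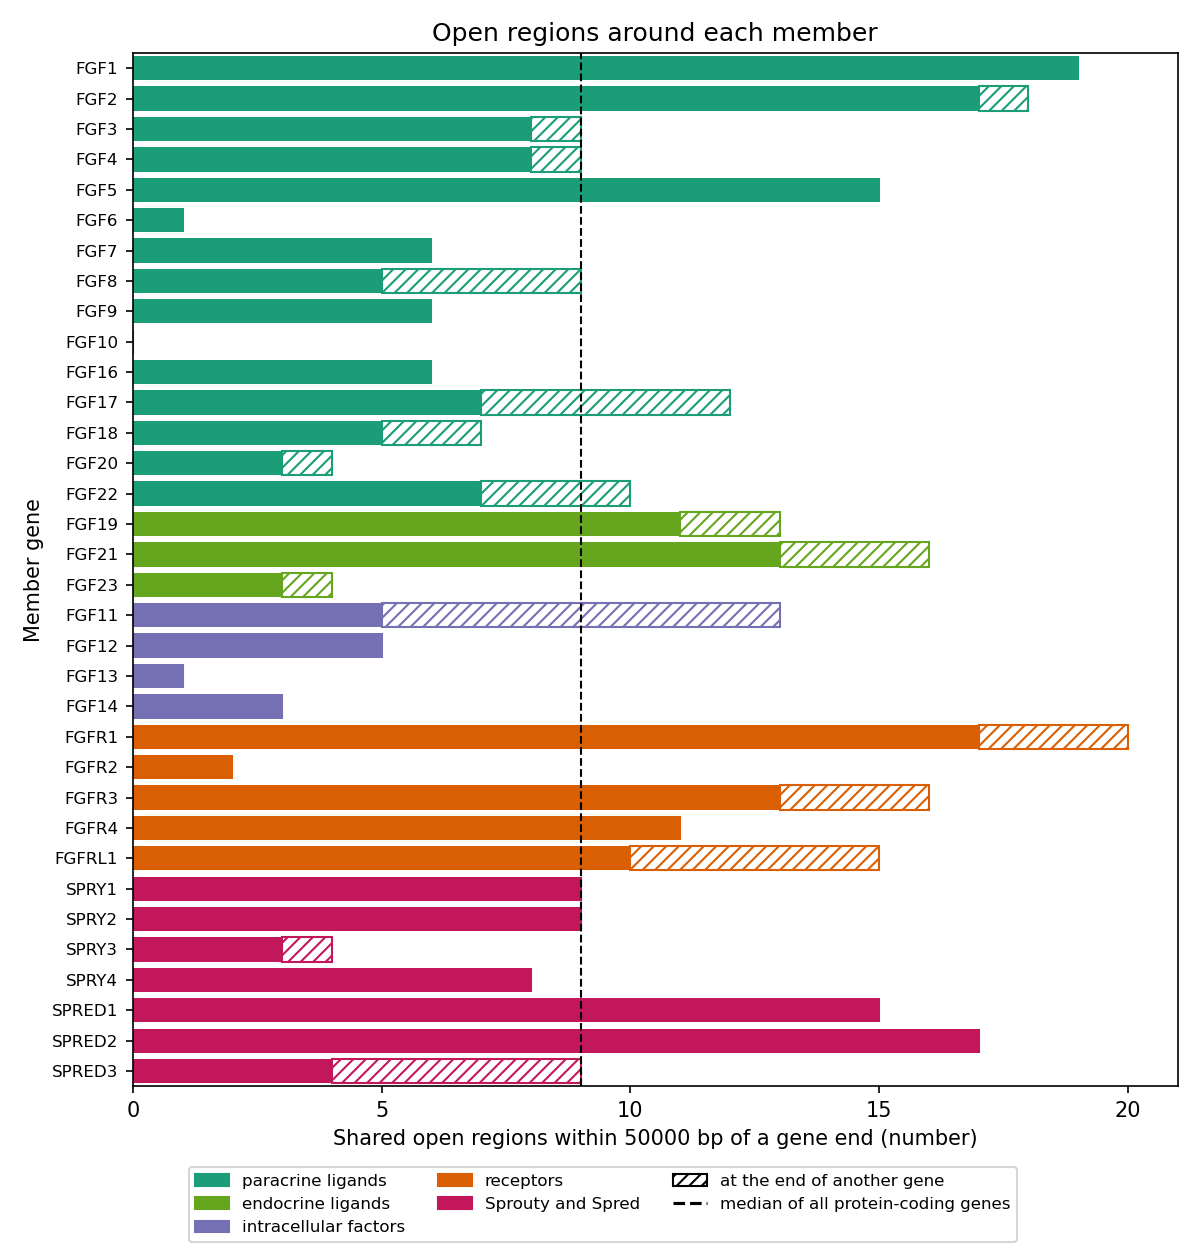
Number of shared open regions within 50000 bp of a gene end for each member, with the hatched part lying at the end of another gene and the dashed line at the median of all protein-coding genes, 9. FGFR1 (20), FGF1 (19) and FGF2 (18) have the longest bars, and FGF10 has none.

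**Figure D5:**
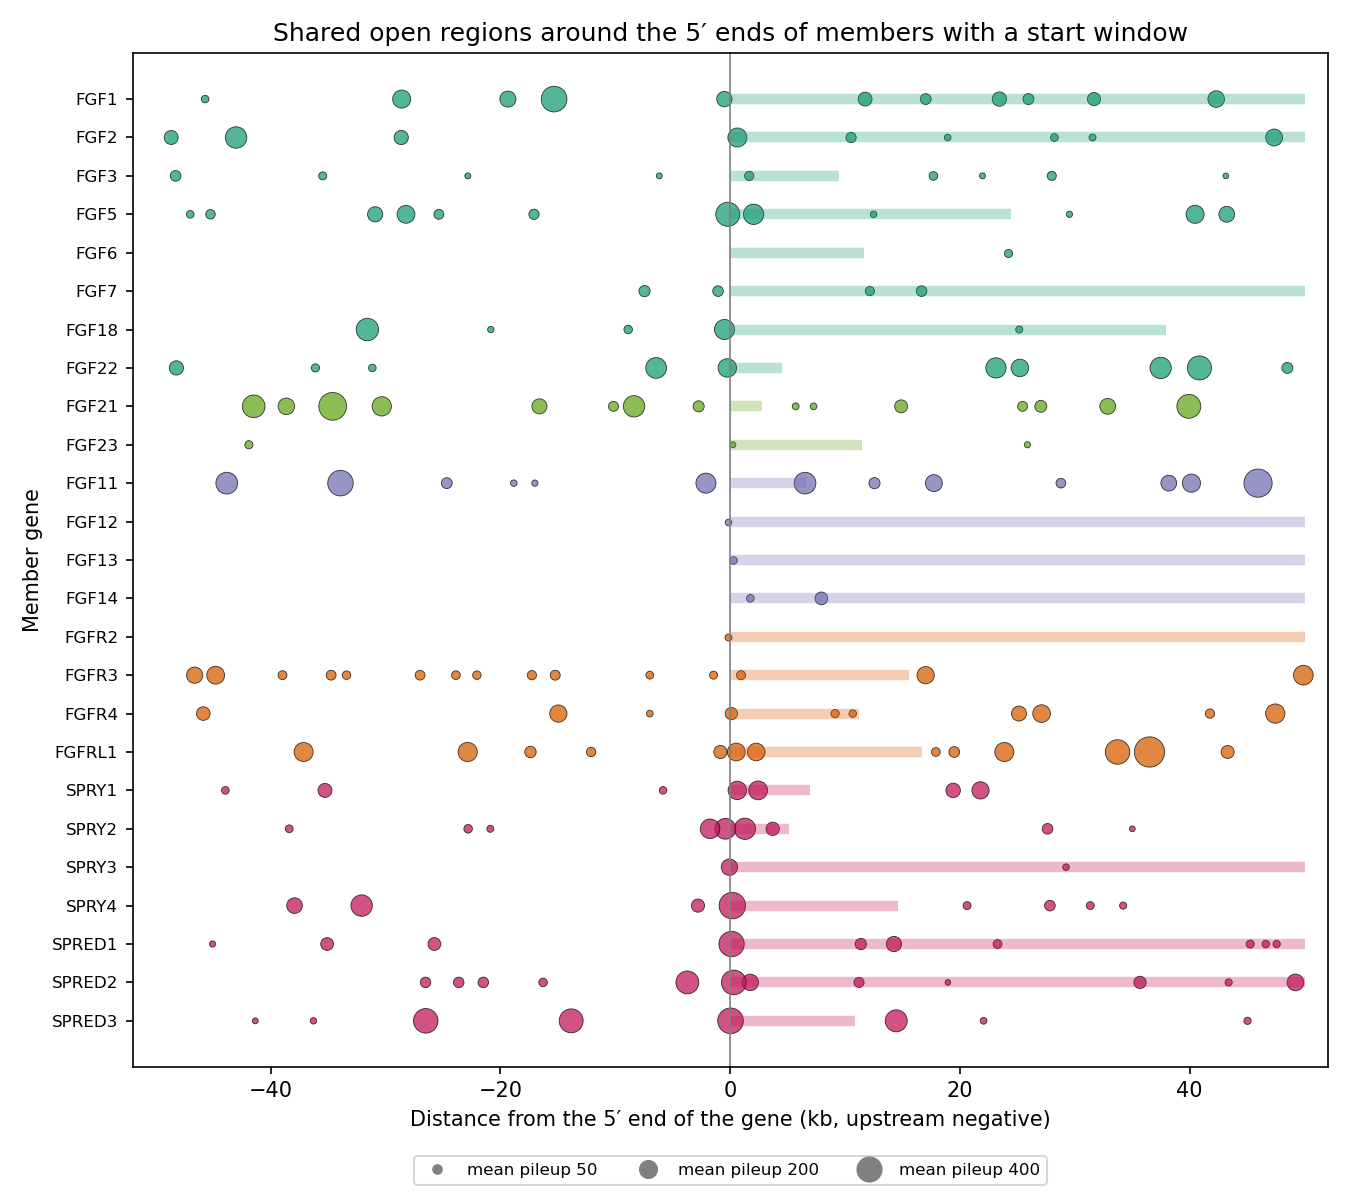
Shared regions within 50 kb of the 5′ end of members that have a start window, by distance in kb with upstream negative. Circle area follows the mean recovered pileup of R1 and R2 and pale bars are the gene interval, so FGF10, with no region, has no row. FGF1, FGF2 and FGFR3 have regions spread over both sides, whereas FGF12, FGF13 and FGFR2 have 1 near the start and no other.

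Regions near members were found again in the other list about as often as regions in general. Of 377 R1 regions within 50000 bp of a member, 323 (85.7%, exact Clopper-Pearson 95% interval 81.7 to 89.1) overlapped an R2 region, against 87.3% of all R1 regions. Of 352 R2 regions, 315 (89.5%, 85.8 to 92.5) overlapped an R1 region, against 91.8% of all R2 regions. The intervals cover counting error only and include the values over all regions.

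Genes that act with the members were set beside them. Of 48 such genes, named for their place in the pathway, 44 (91.7%) were open at a gene end in both lists, against 29 of the 34 members and the background of 73.9%. An above-median region in both lists stood at 30 of them (62.5%), near the 57.3% of all genes. A pileup above the 90th percentile in both stood at 29 (60.4%), against 39.4% of all genes. Among the best fold percentiles were those of SOS2, IL17RD and MAP2K2. SOS2, an exchange factor for RAS, had folds of 10.5 in R1 and 11.5 in R2 in a region also at the end of VCPKMT. IL17RD, an inhibitor also called Sef, had 10.4 in R1 and 9.44 in R2, and MAP2K2, a kinase that activates ERK, had 9.71 in R1 and 9.42 in R2. The heparan sulfate carriers GPC3 and GPC4 and the receptor partner FLRT3 had a gene-end region in neither list and no shared region within 50000 bp. KLB, the coreceptor of FGF19 and FGF21, had one in R2 only, with a fold of 2.42 and a pileup of 24. KL, the coreceptor of FGF23, had folds of 7.39 in R1 and 7.73 in R2 with pileups of 65 in R1 and 67 in R2. That region also lies at the end of LOC124903151, and the KL start window was not open in both lists. FLRT1 with 22, CBL with 21, SDC2 with 20 and DUSP5 with 19 were the pathway genes richest in shared regions within 50000 bp, beside FRS2, which also had 19.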

How the data were processed

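ATAC-seq peaks of wild-type hTERT-RPE1 cells were analysed as 2 lists, each pooled from 3 libraries. Coordinates are those of hg38, which the submitters' processing notes name as the build. Not given in the sources used here are the aligner, the program that called peaks, the treatment of duplicates and of the Tn5 offset. The depth per library is unknown. For each peak the authors deposited a fold enrichment over background (a ratio), a −log10 p-value, a −log10 q-value, the summit's offset and a display score, which was not used. These are the authors' own values per peak.

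Gene intervals, start windows and sequences came from RefSeq (GRCh38.p14), the same build. Peaks on chromosomes 1 to 22 and X were assigned to genes by distance (1000 bp and 50000 bp) and joined between lists by an overlap of at least 1 bp. Pileup and local background were recovered by solving the fold, taken as (pileup + 1) / (background + 1), together with the Poisson p-value. This gave whole pileups for 100% of peaks in each list within 0.001 on the −log10 scale, a formula inferred from the values that no source states. The lowest background was 7.93 in R1 and 7.79 in R2. On simulated peaks the step recovered 100% of 20000.

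Scripts ran in Python 3.11.15 (scipy 1.17.1, numpy 2.4.6, pandas 2.3.3), with figures drawn by matplotlib 3.10.9. No test was made, because neither list keeps its libraries apart, and counts of members stand beside the share of all genes. Members and lists were chosen with earlier results of these data known. Every member was named. Pathway genes were named for the 4 best mean fold percentiles, the 4 highest counts of regions and no gene-end region. Of these and of the marker genes, 1 pathway gene and the neural retina markers are not reported here. FRS2 (tied at 19), KL and KLB were named after their values were seen. Sequences were those of the 6 members with the best fold percentiles over a start, with 2 closed ones in alphabetical order. Alternatives varied the distances, the −log10 q and fold limits, the lists used and the overlap.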

Additional observations from a re-analysis of the deposited data

How the results depend on the processing

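With peaks of at least the median fold, the counts open at a gene end in both lists were 13 for all members, 7 for paracrine ligands, 0 for endocrine ligands, 1 for intracellular factors, 1 for receptors and 4 for inhibitors, against 57.3% of all genes, and 9 members had an open start window, against 56.1%. With a −log10 q of at least 5, and also of at least 10, 1 endocrine ligand was left, against 71.7% and 69.3% of all genes. Asking for the summit inside the start window left 7 members, against 21.9% of all genes with a start window. Median shared regions per member were 4.5 within 20000 bp, 16.5 within 100000 bp, 5 with a −log10 q of at least 10, 3 with the median fold and 14.5 with either list, against 5, 16, 7, 5 and 12 over all genes. The share of R1 regions found in R2 was 90.2% and 95.9% with a −log10 q of at least 5 and 10. The share of R2 regions found in R1 was 95% with at least 10 and 93.4% with the median fold. These settings add or remove regions by construction. Under the other settings run, every count stayed within 1.5 times its value and each share within its interval, and 30 to 33 members had a shared region nearby under all 9 settings. No paired analysis was possible because the lists are pooled and hold no column per library. Depth limits the weak regions: at pileups of 20 to 50, as at FGF3, FGF4, FGF23 and FGFR2, the counting interval is wide, and a gene with no peak may hold openness below the caller's limit.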

Other observations

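Long members were sparsely open along their bodies. Over the whole gene interval, FGF12 held 1.87 shared regions per 100 kb, FGF13 1.02 and FGF14 0.723, against a median of 4.18 for the 1396 genes over 200000 bp. FGFR2 is shorter and held 0.832. By contrast FGF1 held 12.3. The short SPRY2 held 58.2, which stands for 3 regions in a gene of 5151 bp. The median above is for long genes only and gives no background for these shorter ones.

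Several members are neighbours on a chromosome, and the sequence between them was open to unlike degrees. The 267 kb between SPRY4 and FGF1 holds no other protein-coding gene and had 17 shared regions, 6.36 per 100 kb. Of these, 10 lay above the middle of the lists by the mean of their R1 and R2 fold percentiles. The 499 kb between FGF2 and SPRY1, which also holds NUDT6 and AFG2A, had 25 shared regions, 5.01 per 100 kb. By the same mean percentile, 15 of them lay above the middle. Between FGF23 and FGF6, 54.4 kb held 1 region, 1.84 per 100 kb. Between FGF4 and FGF3, 34.6 kb held 4 regions, 11.6 per 100 kb, and between FGF19 and FGF4, 67.0 kb held 4, 5.97 per 100 kb. The 766 kb between FGFRL1 and FGFR3 held 69 regions, 9.0 per 100 kb, and 13 other genes. Here 27 of the regions lay above the middle by mean percentile. Over the chromosomes used the value was 4.16 per 100 kb. These intervals were chosen after their values were seen.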
